A study of Mus musculus with 2 samples.

Results

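The 10 genes described here belong to the transforming growth factor beta (TGF-beta) system and were followed through the cell types of injured mouse kidneys: the ligand genes Tgfb1, Tgfb2 and Tgfb3, the latency and activation genes Ltbp1 and Itgb6, the receptor genes Tgfbr1, Tgfbr2, Tgfbr3 and Eng, and the feedback inhibitor Smad7. They were chosen by name, and all 10 were found among the 32285 genes of both libraries. The control library came from mice labelled Cre-, and the other from mice labelled Cdh5-CreERT2; Phd3f/+, called haplodeficient here. In the latter, a tamoxifen-inducible Cre recombinase is driven by the endothelial promoter of Cdh5, and 1 of the Phd3 alleles is floxed. Both groups had unilateral clamping of the renal artery (ischaemia reperfusion injury), then 4 tamoxifen injections, and the injured kidney was taken on day 14 after injury. Both libraries carry batch 1. Each group was 1 library, and neither the number or age of the animals in it nor whether Cre- mice carried the floxed allele was given in the labels, so every difference below is between 2 libraries, with intervals that cover counting error only and no test of genotype.

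TGF-beta is secreted in a latent complex. Ltbp1 encodes a binding protein that anchors this complex in the matrix, and Itgb6 encodes the beta chain of the epithelial integrin that frees the ligand. The active ligand binds the type II receptor (Tgfbr2), which recruits and activates the type I receptor (Tgfbr1). The co-receptors betaglycan (Tgfbr3) and endoglin (Eng) present ligand, the second mainly in endothelium, and Smad7 is induced by the signal and dampens it. In the kidney the pathway is best known for its part in fibrosis after injury.

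After filtering, the control library held 8737 cells with a median of 8762 unique molecular identifiers (UMIs, counted transcripts) and the haplodeficient library 9222 cells with a median of 5471.5. The median mitochondrial share of UMIs was 10.2% and 2.69%. The libraries shared 28 cell barcodes. Kidney identity was clear from 7 tubule classes, but the makeup differed: proximal tubule was 33.9% of control and 3.87% of haplodeficient cells, and leukocytes were 15.5% and 41.7%. Endothelial cells numbered 362 and 793. Egln3, which encodes PHD3, had 58 UMIs (24.2 CPM, counts per 1000000 UMIs) in control and 110 UMIs (20.9 CPM) in haplodeficient endothelium. The position of the floxed segment was not given in the labels, so this 3′-end count does not check the genotype.

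Levels are CPM of the UMIs summed over a cell class in 1 library. A class was compared between libraries when each had at least 50 cells, which left 15 classes and 150 pairs of gene and class. Of these, 99 were eligible for a ratio, having 30 or more UMIs in the libraries combined and a mean level of 10 CPM or more. None of the 99 passed the size rule (a log2 ratio, with 5 CPM added, of 1 or more in either direction, and Poisson 95% intervals that did not overlap). Over all eligible genes of the 15 classes 1.96% passed, 0.86% higher and 1.1% lower in the haplodeficient library. The counting interval of the CPM ratio excluded 1 in 49 of the 99 pairs, with 9 above and 40 below. For the 60 further pathway genes described below it did so in 294 of 552 pairs, with 130 above and 164 below. The share over all eligible genes was not computed, so counts of such intervals here and below have no background beside them. By sign alone, 35 of the 99 log2 ratios were positive. Over all eligible genes of a class, the positive share ran from 43.1% in dendritic cells to 74.3% in proximal tubule. Smaller differences, mostly lower in the haplodeficient library, are described below with their intervals, as differences between these 2 libraries.

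**Figure D1:**
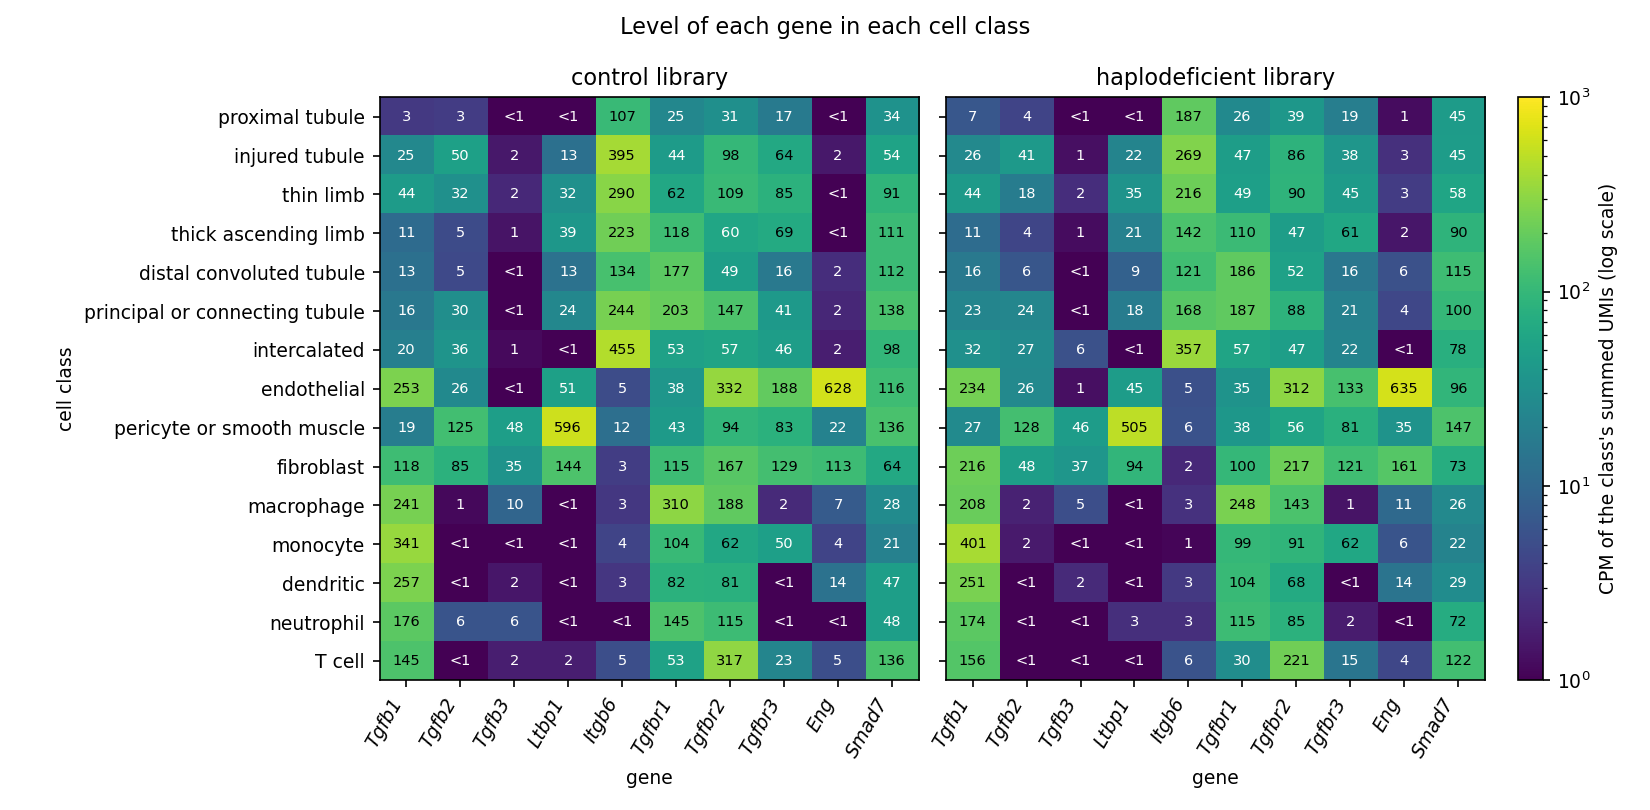
CPM of each gene (columns) in 15 cell classes (rows) for the control (left) and haplodeficient (right) library, with the colour on a log scale and the number printed in each cell. Eng peaks in endothelium at 628 and 635 CPM, Ltbp1 in pericytes or smooth muscle at 596 and 505, and Itgb6 is high in every tubule class and near 0 elsewhere.

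Tgfb1 (chr7:25687002-25705077, plus strand; GRCm38, GENCODE M21, protein-coding like the other 9), the best-studied ligand gene, was a leukocyte and endothelial transcript. In monocytes it stood at 341 CPM in control cells and 401 CPM in haplodeficient cells. In dendritic cells it was 257 and 251 CPM, and in macrophages 241 and 208 CPM. Endothelium was level with these leukocytes at 253 and 234 CPM, and in the control library the Poisson intervals of monocytes, dendritic cells, endothelium and macrophages overlapped from each class to the next. Tubules lay far below: thin limb had 43.8 and 43.6 CPM, thick ascending limb 11.2 and 11.4 CPM, and proximal tubule 3.11 and 6.57 CPM. About 20.5% and 23.8% of the proximal tubule value was what free RNA (the RNA of near-empty barcodes) would give.

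Fibroblasts had the highest Tgfb1 ratio of the 14 eligible classes. Their level was 118 CPM (95% interval 91.8 to 150) in 110 control cells and 216 CPM (187 to 248) in 122 haplodeficient cells, a ratio of 1.82 (1.38 to 2.44) and a log2 ratio of 0.84. After thinning each cell to 1000 UMIs, however, 10% and 11.8% of fibroblasts had a Tgfb1 UMI, against 31.8% and 48.4% unthinned. The median fibroblast depth was 4592.5 and 6322 UMIs. Across settings the log2 ratio ran from 0.26 to 1.03. Macrophages went the other way, with a ratio of 0.86 (0.802 to 0.923).

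Tgfb2 (chr1:186622792-186705989, minus strand), the ligand gene with the best-known roles in development, was highest in mesenchyme among the compared classes, with lower levels in some tubule classes and endothelium. Pericytes or smooth muscle held 125 CPM in control cells and 128 CPM in haplodeficient cells, and fibroblasts 85.2 and 48.2 CPM. Injured tubule cells had 50.4 and 41.3 CPM, and intercalated cells 35.6 and 27 CPM. Thin limb had 32.1 and 18 CPM, principal or connecting tubule 30.1 and 24.1 CPM, and endothelium 26.3 and 25.7 CPM. Proximal tubule, thick ascending limb and distal convoluted tubule had at most 6.41 CPM in either library and were not eligible. Leukocytes were almost without it: dendritic cells, monocytes and T cells had no UMI in the control library, and 1, 3 and 1 UMIs in the haplodeficient library. The highest levels lay in clusters that no marker list named. An Akr1c18-led cluster of 83 control cells held 422 CPM and 20.2% of all Tgfb2 UMIs of its library, and the haplodeficient library had only 10 such cells. A Wnt16-led cluster held 186 CPM in 79 control cells and 183 CPM in 237 haplodeficient cells, and gave 29.2% of the Tgfb2 UMIs of the second library. Of 7 eligible classes 6 were lower in the haplodeficient library, with intervals below 1 in 4: thin limb (ratio 0.562, 0.453 to 0.698), fibroblasts (0.565, 0.368 to 0.867), principal or connecting tubule (0.802, 0.645 to 0.995) and injured tubule (0.818, 0.701 to 0.953).

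Tgfb3 (chr12:86056745-86079041, minus strand) was eligible in 2 classes, both mesenchymal. Pericytes or smooth muscle had 47.8 CPM (32.5 to 67.9) in control cells and 45.8 CPM (34.6 to 59.5) in haplodeficient cells. Fibroblasts had 34.8 CPM (21.2 to 53.7) and 37.2 CPM (25.8 to 52). The libraries overlapped widely in both. With 20 to 56 UMIs behind each value, the interval of the ratio in pericytes or smooth muscle ran from 0.607 to 1.54. Macrophages, just under the minimum, had 9.58 and 5.27 CPM.

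Ltbp1 (chr17:75005568-75392512, plus strand) marked the vessel wall. Its level was 596 CPM (538 to 658) in control and 505 CPM (465 to 546) in haplodeficient pericytes or smooth muscle. Fibroblasts followed with 144 and 94.1 CPM and endothelium with 51.4 and 45.3 CPM, while leukocytes had at most 3 UMIs per class in the control library. The ratio was below 1 in the mesenchyme: 0.847 (0.745 to 0.964) in pericytes or smooth muscle and 0.652 (0.477 to 0.893) in fibroblasts. It was lowest in thick ascending limb, at 39 and 20.9 CPM (ratio 0.536, 0.473 to 0.607). That difference lay mostly in the Psca-led cluster of this class, with 78.6 and 47.8 CPM, and less in the Slc12a1-led cluster, with 15.2 and 12 CPM. Across settings the log2 ratio of thick ascending limb ran from -0.87 to -0.15. Thin limb had 32.1 and 34.6 CPM (ratio 1.08, 0.897 to 1.30), with an interval that held 1. Only injured tubule had an interval above 1, with 12.6 CPM in control and 22.3 CPM in haplodeficient cells (1.76, 1.38 to 2.26). Its Havcr1-led cluster had 6.35 and 18.8 CPM, but a Cenpf-led dividing cluster of 37 and 34 cells had 76.8 and 41.1 CPM, the opposite order. The log2 ratio of the whole injured tubule class ran from -0.08 to 1.46 across settings.

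Across the 31 class and library profiles with at least 50 cells (16 classes), Tgfb2 and Ltbp1 followed each other (Pearson r 0.81 of log2(CPM + 5)), and Tgfb3 followed Ltbp1 (r 0.69). The 2 libraries of a class share cell type and scaling, so these are descriptions with no p. Tgfb1 and Itgb6 were the most opposed pair (r -0.83). The genes most like Tgfb2 were Col18a1, Afap1l2 and Gm26632 (r 0.90, 0.88 and 0.88), and those most like Ltbp1 were Mtss2, Gucy1a2 and Tgfb1i1 (r 0.97, 0.95 and 0.94). Ednra, Ptgis and Fxyd1 were most like Tgfb3 (r 0.94, 0.93 and 0.92), and Crlf2, Irf2 and Ifi27l2a most like Tgfb1 (r 0.94, 0.93 and 0.93).

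The 250 bases upstream of the annotated starts of Tgfb2 and Ltbp1 are shown because these genes shared their 2 highest compared classes. Both were highest in pericytes or smooth muscle, then in fibroblasts. Elsewhere they parted: intercalated cells had 35.6 and 27 CPM of Tgfb2 but 0.593 and 0.931 CPM of Ltbp1. The bases are from RefSeq (GRCm38.p6), 5′ to 3′ on the gene's strand, with the first listed start of Ltbp1. The windows are chr1:186705990-186706239 (minus strand) for Tgfb2 and chr17:75005279-75005528 (plus strand) for Ltbp1. Capitals mark a TATA box (TATAAA) in Tgfb2 and a cyclic AMP response element (TGACGTCA) in Ltbp1.
Tgfb2: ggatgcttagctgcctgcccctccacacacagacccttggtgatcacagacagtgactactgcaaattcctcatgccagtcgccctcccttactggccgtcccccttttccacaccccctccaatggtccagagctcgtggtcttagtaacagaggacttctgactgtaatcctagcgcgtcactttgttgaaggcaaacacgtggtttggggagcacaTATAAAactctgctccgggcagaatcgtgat
Ltbp1: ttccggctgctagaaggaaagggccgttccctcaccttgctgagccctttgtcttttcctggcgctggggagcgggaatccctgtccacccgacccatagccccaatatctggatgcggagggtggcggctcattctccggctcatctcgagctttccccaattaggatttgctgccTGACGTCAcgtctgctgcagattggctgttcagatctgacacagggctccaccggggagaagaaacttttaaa
The TATA box lay 31 to 26 bases before the start of Tgfb2, and 12.4% of 32851 mouse windows of that length held this motif on either strand. The cyclic AMP element lay 73 to 66 bases before the start of Ltbp1, and 1.55% of windows held it. Neither motif was in both windows.

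Itgb6 (chr2:60598292-60722643, minus strand), the epithelial activator gene, was confined to tubules among the 15 classes. Intercalated cells stood highest, at 455 CPM (423 to 488) in control cells and 357 CPM (322 to 394) in haplodeficient cells. Injured tubule had 395 and 269 CPM, thin limb 290 and 216, principal or connecting tubule 244 and 168, thick ascending limb 223 and 142, and distal convoluted tubule 134 and 121. In endothelium the levels of 5.01 and 5.33 CPM equalled 101% and 64.1% of what free RNA would give. In macrophages 3.07 and 2.69 CPM equalled 122% and 105%. After thinning, 0.638% and 0.313% of macrophages had an Itgb6 UMI against 30.1% and 22.9% of intercalated cells. The median depths were 4947 and 5495 UMIs in macrophages and 9041 and 9153.5 in intercalated cells.

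Itgb6 was lower in 6 of the 7 eligible tubule classes of the haplodeficient library, with intervals below 1, from a ratio of 0.638 (0.608 to 0.67) in thick ascending limb to 0.903 (0.821 to 0.993) in distal convoluted tubule. Injured tubule was at 0.681 (0.643 to 0.721) and principal or connecting tubule at 0.689 (0.638 to 0.745). These 6 stayed lower in each alternative that kept the class. Proximal tubule was the exception, at 107 CPM (104 to 110) in control cells and 187 CPM (172 to 202) in haplodeficient cells (ratio 1.74, 1.60 to 1.90; log2 ratio 0.77). The class was made up differently: Kap-led and Slc7a13-led clusters gave 627 and 346 of 2966 control cells but 23 and 5 of 357 haplodeficient cells. The value was higher in all 5 of its clusters, though the Kap-led and Slc7a13-led ones rest on these few haplodeficient cells. The part of this makeup in the class value was not tested. The cluster led by Slc5a12 (899 and 129 cells) had 100.2 and 187 CPM, and that led by Spp2 (570 and 146 cells) had 35 and 86.5 CPM. The median gene of this class was itself shifted by 0.20 (log2), its median mitochondrial share was 23.3% and 6.95%, and its median depth was 10535 and 6284 UMIs; their part in the result was not tested. With the classes scaled to their median gene, the log2 ratio of Itgb6 was 0.55.

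Tgfbr1 (chr4:47353222-47414931, plus strand), the signalling type I receptor gene, was eligible in all 15 classes. Macrophages held most per UMI, with 309.6 CPM (295 to 325) in control cells and 248 CPM (238 to 258) in haplodeficient cells, a ratio of 0.801 (0.752 to 0.853). Principal or connecting tubule came next with 203 and 187 CPM, then distal convoluted tubule with 177 and 187 CPM. Neutrophils (145 and 115 CPM) and thick ascending limb (118 and 109.7 CPM) followed, with overlapping intervals in both libraries. Proximal tubule was lowest in both libraries, at 24.7 and 26.3 CPM. The interval was below 1 in 5 classes and above 1 in 1, dendritic cells (82 and 104 CPM, ratio 1.27, 1.00 to 1.61). The dendritic log2 ratio ran from -0.16 to 0.41 across settings. The lowest ratio was that of T cells, with 53.1 and 29.9 CPM from 30 and 96 UMIs (0.563, 0.37 to 0.88).

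Tgfbr2 (chr9:116084293-116175360, minus strand), the ligand-binding type II receptor gene, was highest in endothelium and T cells. Endothelium had 332 CPM (309 to 356) in control cells and 312 CPM (297 to 328) in haplodeficient cells, a ratio of 0.94 whose interval (0.863 to 1.02) held 1. T cells had 317 and 221 CPM, a ratio of 0.697 (0.591 to 0.826), so they were level with endothelium in the control library only. The ratio was also below 1 in principal or connecting tubule (147 and 87.6 CPM, 0.596, 0.537 to 0.662), pericytes or smooth muscle (94.1 and 56.4 CPM, 0.599, 0.419 to 0.86) and macrophages (188 and 143 CPM, 0.763, 0.704 to 0.828). In all, 7 intervals lay below 1 and 2 above, those of proximal tubule (1.25, 1.03 to 1.51) and fibroblasts (1.30, 1.01 to 1.68). Principal or connecting tubule was made up differently, with an Aqp2-led cluster of 160 control and 12 haplodeficient cells.

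T cells therefore had lower levels of both signalling receptor genes. Of their 5 eligible genes, Tgfbr1, Tgfbr2, Tgfbr3 and Smad7 had negative log2 ratios (-0.74, -0.51, -0.51 and -0.15) and Tgfb1 a positive one (0.10). The median over the 5 was -0.51, and that of all 7781 eligible genes of the class -0.08. The control library had 178 T cells and the haplodeficient library 1039. In the control library 90 of them were in the Cd40lg-led and 56 in the Cd8b1-led cluster, and in the haplodeficient library 477 and 399. Over the alternative settings, including 1 that weights these clusters alike, the Tgfbr2 log2 ratio ran from -0.56 to -0.42.

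Tgfbr3 (chr5:107106570-107289629, minus strand), the betaglycan gene, held the lowest single log2 ratio of the 10 genes, -0.91 in intercalated cells. It was highest in endothelium, with 188 CPM (171 to 206) in control cells and 133 CPM (123 to 143) in haplodeficient cells, a ratio of 0.707 (0.627 to 0.798). Fibroblasts had 129 and 122 CPM and pericytes or smooth muscle 83.3 and 81 CPM, with intervals that held 1. The tubule values differed more. Intercalated cells had 46.3 and 22.3 CPM (ratio 0.483, 0.292 to 0.772), principal or connecting tubule 40.6 and 20.6 CPM (0.508, 0.41 to 0.627; -0.83), and thin limb 85.5 and 44.8 CPM (0.525, 0.459 to 0.6; -0.86). Injured tubule had 64.3 and 37.8 CPM (0.588, 0.504 to 0.684; -0.69). These 4 were lower in every alternative that kept the class, and intercalated cells and thin limb crossed the size rule in some of them, with log2 ratios down to -1.13 and -1.04.

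The lower Tgfbr3 was not uniform along the tubule. Thick ascending limb was at 69 and 61.5 CPM (0.89, 0.821 to 0.965), distal convoluted tubule at 16.2 and 15.5 CPM (0.957, 0.725 to 1.26) and proximal tubule at 17.3 and 19.4 CPM (1.12, 0.848 to 1.45). Within injured tubule the Havcr1-led cluster had 67.7 and 33.5 CPM, and the small Cenpf-led cluster 30.3 and 61.2 CPM. Among the leukocytes compared it was highest in monocytes, with 50 CPM from 12 control UMIs and 61.6 CPM from 113 haplodeficient UMIs, and T cells had 23 and 14.6 CPM, while dendritic cells had 0 and 2 UMIs. For 0 counts in 1328730 control dendritic UMIs the floor of 3 counts is 2.26 CPM, and the upper Poisson limit is 2.78 CPM.

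Eng (chr2:32646595-32682669, plus strand), the endoglin gene, was largely an endothelial transcript, and in endothelium the libraries did not differ beyond counting error. Endothelium had 628 CPM (597 to 660) from 1503 UMIs in control cells and 635 CPM (614 to 657) from 3335 UMIs in haplodeficient cells, a ratio of 1.01 (0.951 to 1.08). That narrow interval is set by depth, since these are the largest Eng counts of any class. Endothelium held 76.1% and 78.1% of all Eng UMIs of its library. After thinning, 43% and 42.6% of endothelial cells had an Eng UMI, against 0.0358% and 0.302% of proximal tubule cells, where 89.7% and 83.2% of the Eng level was what free RNA would give. The median endothelial depth was 3996.5 and 3901 UMIs. Fibroblasts had 113 CPM (87.2 to 144) and 161 CPM (136 to 189), a ratio of 1.42 (1.06 to 1.94), and were the 1 class of the 4 eligible whose interval excluded 1.

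The promoters of Eng and Itgb6 are shown because these genes had the sharpest and opposite territories, endothelium and tubule. The windows are chr2:32646345-32646594 (plus strand) for Eng and chr2:60722604-60722853 (minus strand, the first listed start) for Itgb6. Capitals mark the core letters AGGAAG, on either strand, to which ETS family factors can bind.
Eng: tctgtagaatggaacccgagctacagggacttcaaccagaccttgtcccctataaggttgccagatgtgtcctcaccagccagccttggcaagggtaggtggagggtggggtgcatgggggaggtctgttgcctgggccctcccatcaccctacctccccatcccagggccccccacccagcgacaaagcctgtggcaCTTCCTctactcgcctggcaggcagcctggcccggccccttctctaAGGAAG
Itgb6: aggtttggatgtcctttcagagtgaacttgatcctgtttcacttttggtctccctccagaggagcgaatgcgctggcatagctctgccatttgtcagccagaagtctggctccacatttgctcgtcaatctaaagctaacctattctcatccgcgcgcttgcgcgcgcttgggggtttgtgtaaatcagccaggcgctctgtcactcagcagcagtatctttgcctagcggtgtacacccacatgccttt
Eng held this motif 52 to 47 bases and again 6 to 1 bases before its start. Itgb6 did not hold it in this window, but the window of its second listed start did, 53 to 48 and 34 to 29 bases before that start. Of all windows, 29.5% held it. Windows were found for 7 of the 10 genes, 10 windows in all, of which 5 held AGGAAG. The short Smad site CAGAC was in 7 of the 10 and in 42.2% of all windows. The full palindrome GTCTAGAC, which Smad proteins bind, was in none of the 10 and in 0.167% of all, and the AP-1 site TGACTCA in none and in 4.46%. The genes most like Eng over the 31 profiles were Tmem204, Emcn and Fbln5 (r 0.94 for each), and Grb7 and Igsf5 were among those most like Itgb6 (r 0.97 for each).

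**Figure D2:**
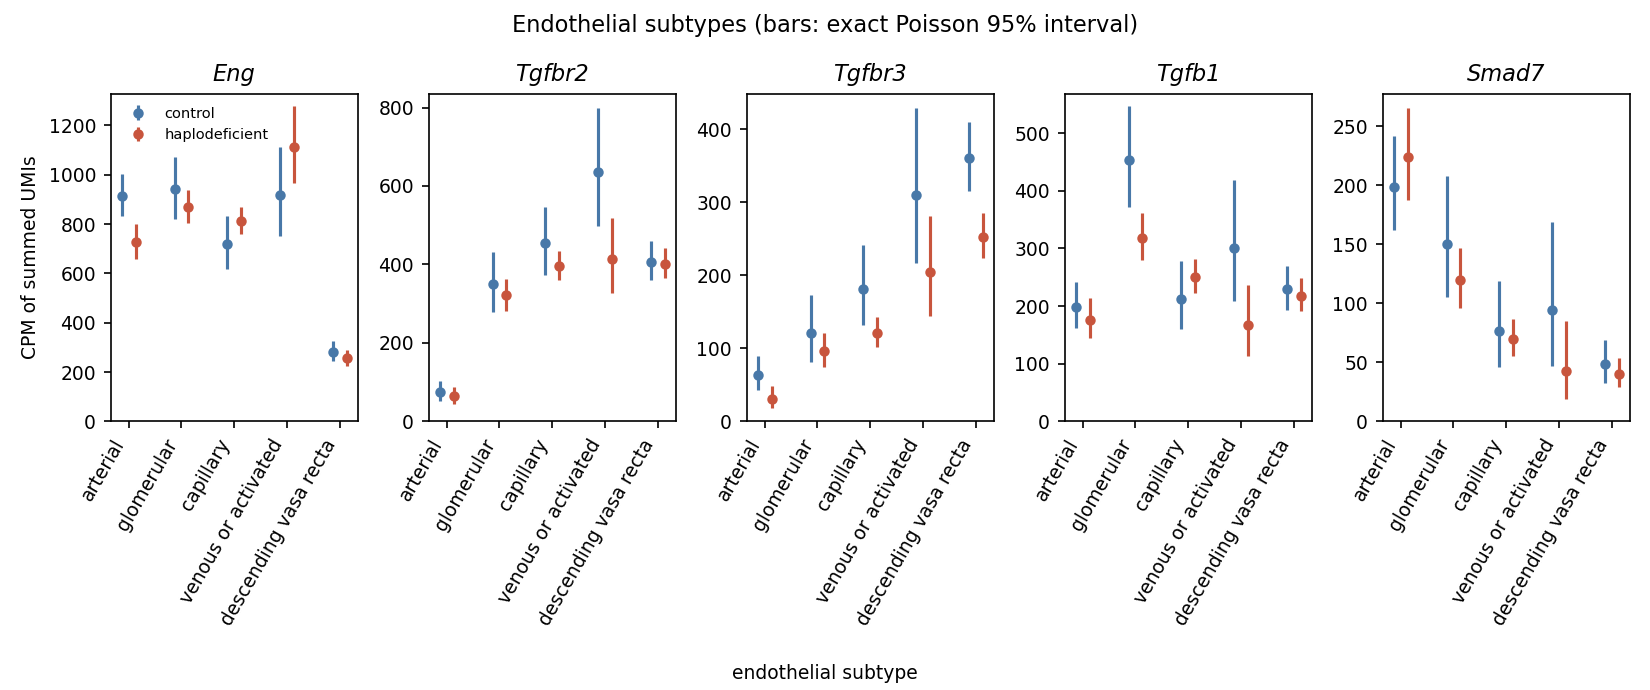
CPM (vertical axis) of 5 genes in 5 endothelial subtypes (horizontal axis) of the control (blue) and haplodeficient (red) library, with bars for the exact Poisson 95% interval. Eng is lowest in descending vasa recta at 283 and 255 CPM, Tgfbr2 in arterial cells at 74.7 and 63.9 CPM, and Smad7 is highest in arterial cells at 199 and 224 CPM.

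Endothelial cells, where the Cre driver acts, were split into subtypes by markers, and the levels of the receptors differed between subtypes. Tgfbr2 was lowest in arterial cells, with 74.7 CPM (52.9 to 103) in 56 control and 63.9 CPM (45.2 to 87.8) in 77 haplodeficient cells. Capillary cells had 454 and 396 CPM, descending vasa recta 407 and 402 CPM, and the 20 and 34 venous or activated cells the highest values, 636 and 414 CPM. Eng ran differently, with 915 and 727 CPM in arterial, 940 and 869 CPM in glomerular and 719 and 813 CPM in capillary cells, 919 and 1114 CPM in venous or activated cells, but 283 and 255 CPM in descending vasa recta. The order of arterial and capillary Eng was thus opposite in the 2 libraries, though their intervals overlapped in the haplodeficient library. Tgfbr3 was highest in descending vasa recta at 361 CPM (316 to 410) and 253 CPM (223 to 284) and lowest in arterial cells at 62.9 and 30.3 CPM. Tgfb1 was highest in glomerular cells, at 454 CPM (372 to 547) in 29 control and 319 CPM (280 to 361) in 75 haplodeficient cells. Subtypes of under 50 cells in a library rest on few cells.

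Between the libraries, 3 values of these 5 genes in the named subtypes had intervals that did not overlap. They were Tgfbr3 in descending vasa recta, Tgfb1 in glomerular cells and Eng in arterial cells, each lower in the haplodeficient library. The share of all genes with such intervals was not computed. Some endothelial subclusters matched no subtype and are left out of this count and the figure. In the largest of them, with 70 control and 142 haplodeficient cells, Tgfbr2 intervals also separated. Its level there was 346 CPM (288 to 412) in control and 238 CPM (202 to 278) in haplodeficient cells. The Tgfbr3 value was lower in the haplodeficient library in all 5 named subtypes, but its intervals separated only in descending vasa recta. These counts cannot tell whether its lower endothelial level was confined to that subtype. The share of capillary cells differed, with 78 of 362 control and 258 of 793 haplodeficient endothelial cells.

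Smad7 (chr18:75367529-75395935, plus strand), the feedback inhibitor gene, was broadly present and eligible in all 15 classes. In the control library it ran from 20.8 CPM in monocytes and 28 CPM in macrophages to 138 CPM in principal or connecting tubule, 136 CPM in T cells and 136 CPM in pericytes or smooth muscle. Of its 15 log2 ratios 9 were negative, and 6 intervals lay below 1 and 1 above. The lowest ratio was that of dendritic cells, with 47.4 and 28.6 CPM (0.603, 0.419 to 0.87). It was also below 1 in thin limb, with 91.1 and 58.1 CPM (ratio 0.638, 0.565 to 0.722), principal or connecting tubule, with 138 and 100.3 CPM (0.729, 0.658 to 0.807), and thick ascending limb, with 111 and 90.0 CPM (0.811, 0.76 to 0.866). Endothelium had 116 and 95.6 CPM (0.823, 0.709 to 0.956). Proximal tubule was higher, with 34.2 and 44.8 CPM (1.31, 1.09 to 1.56), in the class whose median gene was shifted the same way. Macrophages had 28 and 25.9 CPM, within counting error.

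**Figure D3:**
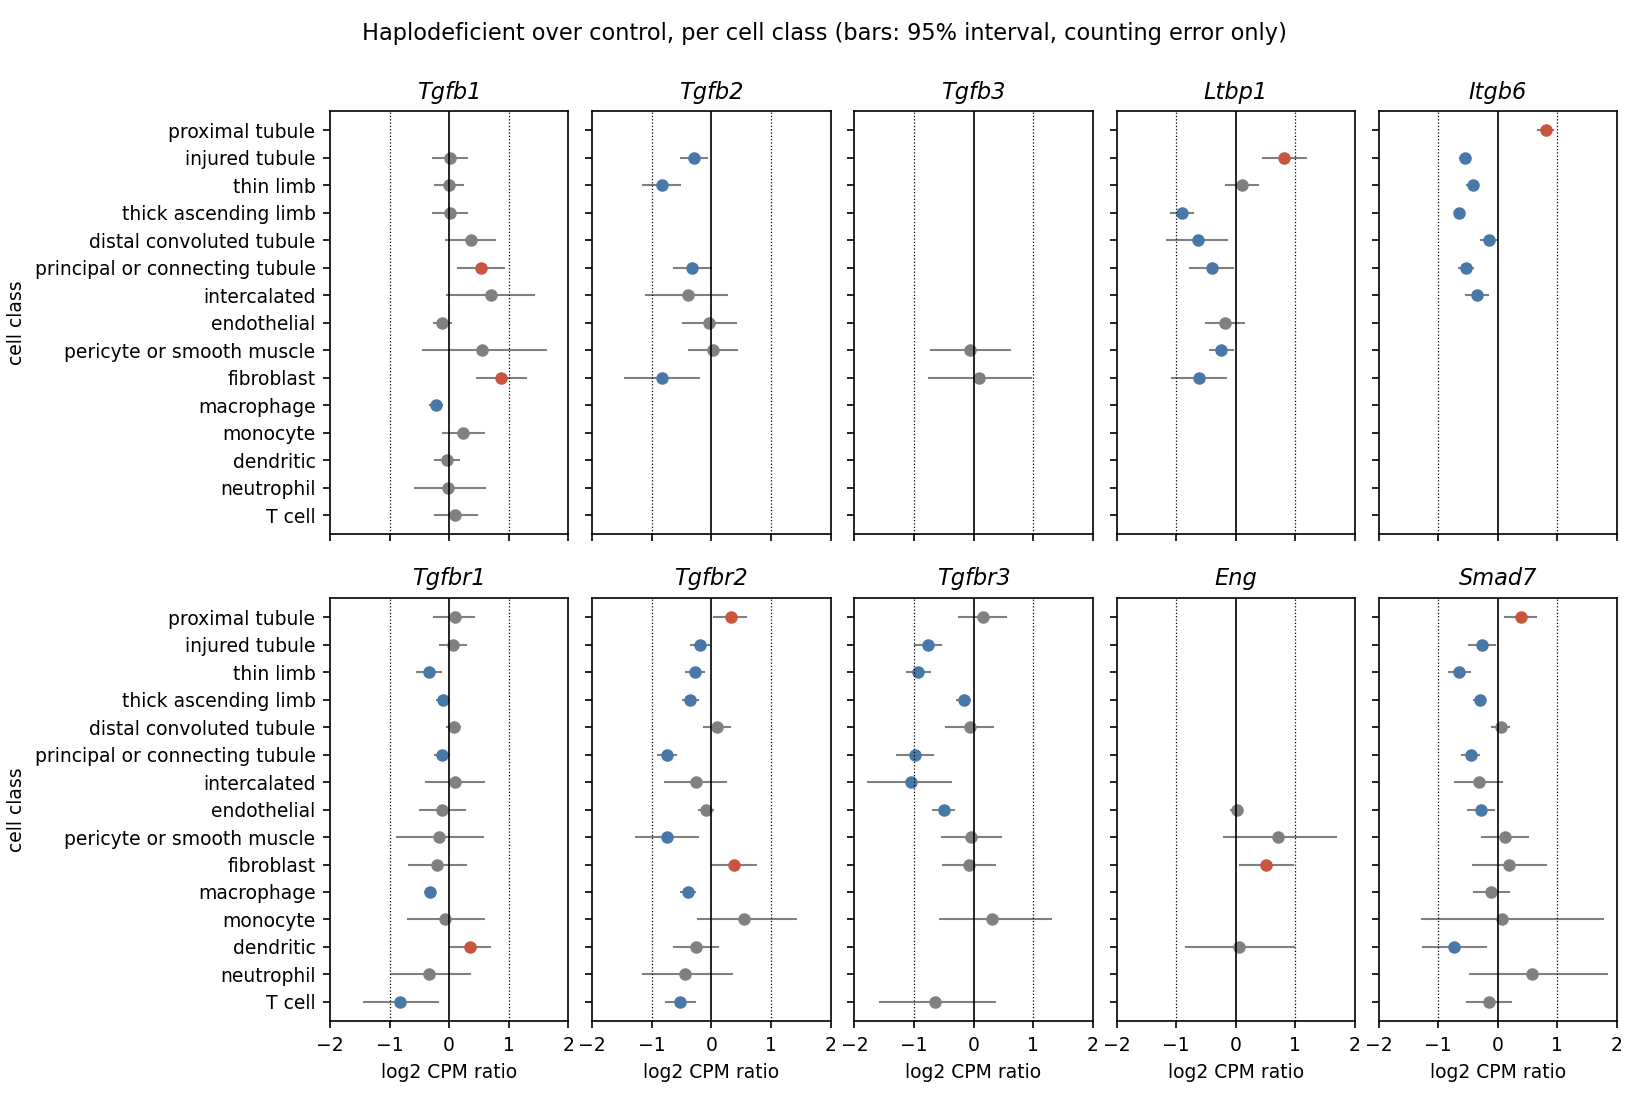
The log2 CPM ratio of the haplodeficient over the control library (horizontal axis, with no added CPM) for each eligible class (vertical axis) in 1 panel per gene, with bars for the 95% interval of counting error and dotted lines at -1 and 1. Red points have intervals above 0, blue points below 0 and grey points neither. Itgb6 points are below 0 in 6 of 7 classes and Tgfbr3 points in 10 of 12, with 6 intervals below 0 for each gene. All 4 Eng points are above 0, with 1 interval above 0.

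Levels over all cells of a library combine its makeup with the levels within its classes. Tgfb1 was 36.6 CPM (35.5 to 37.8) in control cells and 79.4 CPM (77.6 to 81.3) in haplodeficient cells, 2.17 times as high. Eng was 18.5 and 45.6 CPM, 2.47 times as high, and Tgfb3 2.02 and 3.75 CPM, 1.86 times as high. Itgb6 was 181 and 127 CPM, a ratio of 0.7. When every class was given the same share of UMIs in both libraries, these ratios became 0.998 for Tgfb1, 1.05 for Eng, 0.99 for Tgfb3 and 0.852 for Itgb6. Leukocytes held 46.5% of Tgfb1 UMIs in control and 57.8% in haplodeficient cells. Cell recovery from dissociation and the number of cells in the tissue cannot be told apart here.

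Equal shares also lowered the ratios of the receptors. Tgfbr3 was 43.8 and 44.7 CPM over all cells (ratio 1.02), but 0.724 with equal shares. Tgfbr2 went from 1.19 to 0.812, Ltbp1 from 1.32 to 0.786 and Smad7 from 1.05 to 0.877. Tgfbr1 went from 1.27 to 0.938 and Tgfb2 from 0.966 to 0.788. With equal shares, 9 of the 10 genes were thus below 1, with Tgfb1 and Tgfb3 close to it and Eng above. Equal-share ratios were computed for these 10 genes only, so the share of all genes below 1 is not known.

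**Figure D4:**
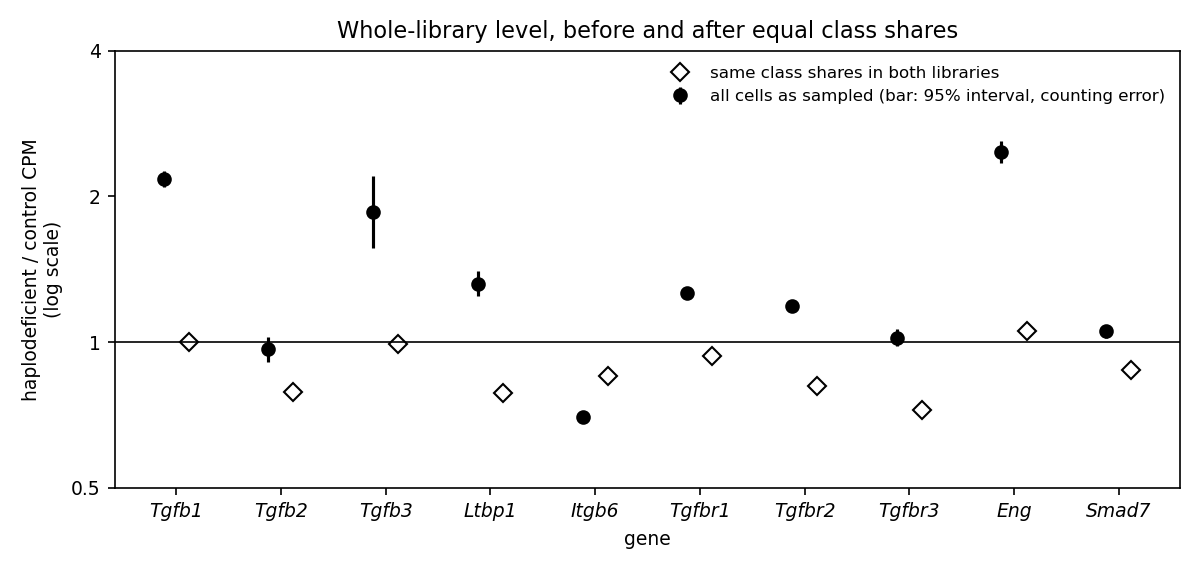
Ratio of haplodeficient to control CPM (vertical axis, log scale) of each gene (horizontal axis) over all cells as sampled (filled circles, bars for the 95% interval of counting error) and with the same class shares in both libraries (open diamonds). Tgfb1 goes from 2.17 to 0.998 and Eng from 2.47 to 1.05.

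The wider pathway was described with 4 lists of 60 further genes: ligand storage and activation (17 genes), receptors and Smads (8), negative regulators (11) and target genes (24). Of 552 eligible pairs of gene and class, 23 passed the size rule (12 higher and 11 lower), or 4.17% against 1.96% of all eligible genes. None of the 23 was in the receptors and Smads list. In the 15 compared classes, the highest levels of the lists were Itgav, the integrin chain that pairs with the Itgb6 product, at 1307 CPM in control intercalated cells, Bmpr2, a type II receptor gene for bone morphogenetic proteins, at 281 CPM in control endothelium, Dcn, the matrix proteoglycan decorin, at 1635 CPM in haplodeficient fibroblasts, and Acta2, smooth muscle actin, at 10377 CPM in haplodeficient pericytes or smooth muscle.

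Several target genes passed the size rule in 2 tubule classes. In proximal tubule 4 of 10 eligible target genes were past the size rule, all higher, where 1.85% of all genes were. Ccn1, a matricellular gene, had 109.7 and 336 CPM (log2 ratio 1.57), Cdkn1a, a cell cycle inhibitor gene, 8.64 and 29.1 CPM (1.32), and Id1, a transcriptional regulator gene, 19.7 and 45.4 CPM (1.03). Tagln, a smooth muscle cytoskeletal gene, had 1.03 and 21.3 CPM (2.12), but 63 of its 68 haplodeficient UMIs were in the Spp2-led cluster, where 6.16% of cells had one. That cluster was 19.2% of the control and 40.9% of the haplodeficient class. In it Ccn1 was at 9.55 and 11.1 CPM and Id1 at 12.7 and 4.44 CPM, both from few UMIs, so neither was higher there beyond counting error. In the Slc5a12-led cluster Ccn1 was at 85.8 and 363 CPM and Id1 at 23.5 and 53.8 CPM. In the Kap-led cluster, with 23 haplodeficient cells, Ccn1 was at 10.7 and 6.02 CPM. Cdkn1a was at 10.5 and 40.8 CPM in the Slc5a12-led cluster, with 75 haplodeficient UMIs in 10.9% of 129 cells. It was at 10.3 and 10.2 CPM in the Gm42397-led cluster, and at 2.73 and 20 CPM, from 6 and 9 UMIs, in the Spp2-led cluster. The Kap-led and Slc7a13-led clusters had 2 and 0 haplodeficient Cdkn1a UMIs. Tagln and Id1 passed in only 5 and 4 of 13 alternatives, Ccn1 and Cdkn1a in 12 each.

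In injured tubule 3 of 16 eligible target genes were past the size rule, all higher, where 0.581% of all genes were. The list as a whole was not higher, with 7 of the 16 positive and a median log2 ratio of -0.02, against 0.01 for all genes of the class. Ccn2, a matricellular gene often used as a readout of TGF-beta, had 11.3 and 42.6 CPM (log2 ratio 1.55). Acta2 had 18.2 and 118 CPM (2.40), and Tagln 43.2 and 316 CPM (2.74). The last 2 are smooth muscle genes and were concentrated in the Cenpf-led dividing cluster. There Tagln was at 376 CPM in 37 control and 1706 CPM in 34 haplodeficient cells, against 10.6 and 60.9 CPM in the Havcr1-led cluster, where 5.91% and 10.6% of cells had a Tagln UMI. Whether these are tubule cells or cells of another type within the class was not tested.

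The other named changes were single genes. Thbs1, which encodes thrombospondin 1, an activator of latent TGF-beta, fell past the size rule in principal or connecting tubule, from 71.4 to 16 CPM (log2 ratio -1.86; 1.34% of all genes of the class were lower by the rule), and in distal convoluted tubule, from 25.2 to 8.09 CPM (-1.21; 0.75%). Both classes were made up differently. The Slc12a3-led cluster was 34.5% of control and 5.62% of haplodeficient distal convoluted tubule cells, and in the Il1f6-led cluster, the rest of the class, Thbs1 was at 18.3 and 8.34 CPM. In the Spink8-led cluster of principal or connecting tubule it was at 52.5 and 15 CPM. Snai1, a transcription factor gene of mesenchymal transition, was higher by the rule in endothelium, at 6.68 CPM from 16 UMIs and 20.8 CPM from 109 UMIs (1.14; 0.273%). In the Plvap-led cluster, 34.3% of control and 43.6% of haplodeficient endothelial cells, it was at 23.9 and 42.2 CPM, with overlapping intervals. Each endothelial cluster was higher, but the intervals separated only in the Cldn5-led cluster, at 2.96 and 21.3 CPM from 2 and 23 UMIs. Of the other pairs, 12 were in classes with under 200 cells in a library. Among these, named after its values were seen, Thbs1 was also lower in intercalated cells (51 and 19.6 CPM; 1.24% of all genes lower by the rule) and dendritic cells (112 and 34.1 CPM; 1.61%) and higher in monocytes (112 and 237 CPM; 1.87% higher). The control monocyte value was 27 UMIs in 5.66% of 53 cells, and the monocyte call held in 8 of 12 alternatives, with log2 ratios down to 0.37. The dendritic value turned positive, at 0.26, when each cell was named alone.

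**Figure D5:**
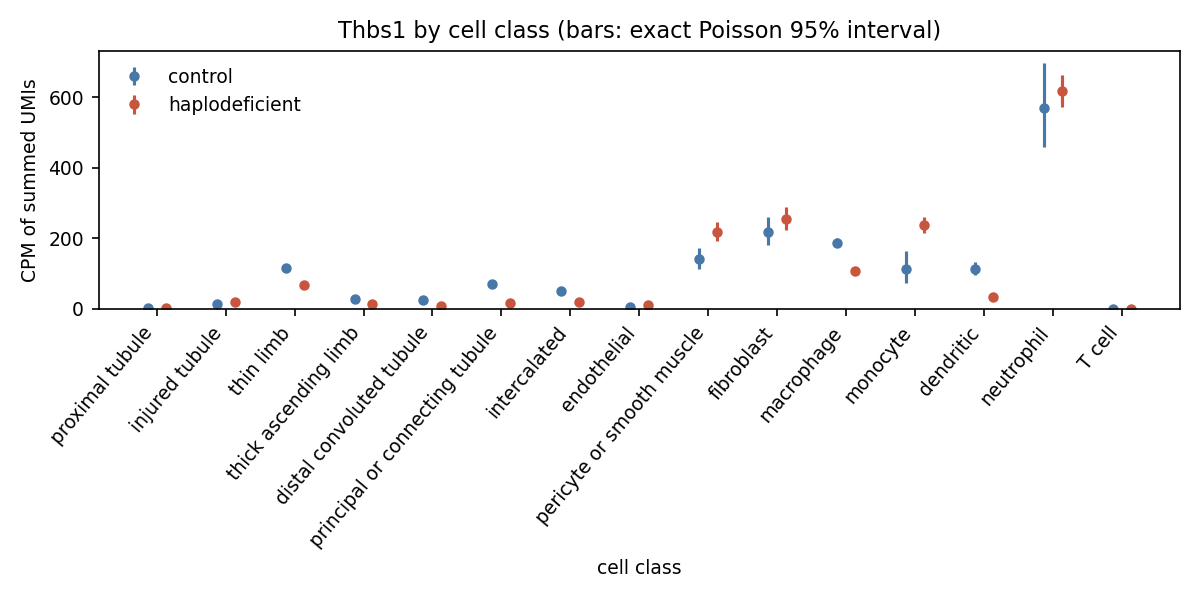
CPM of Thbs1 (vertical axis) in 15 cell classes (horizontal axis) of the control (blue) and haplodeficient (red) library, with bars for the exact Poisson 95% interval. Principal or connecting tubule goes from 71.4 to 16 CPM and dendritic cells from 112 to 34.1, while monocytes go from 112 to 237.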

How the data were processed

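The 2 single-cell RNA libraries of dissociated kidney, made with 10x 3′ chemistry per the labels' protocols, were summed by cell class. The deposited values are raw UMI counts per gene and barcode, written by Cell Ranger 4 per the file headers, with no normalisation. The build is mm10 per the submitters' processing notes. Of the gene identifiers, 99.8% matched GENCODE M21. The libraries held 134190236 and 114668145 UMIs over 1342632 and 1430043 barcodes.

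Barcodes were kept from 500 UMIs and 200 genes upwards, with a mitochondrial share no higher than 50%, and likely doublets (the highest Scrublet scores, 0.8% per 1000 cells; 715 and 804 cells) were removed. Cells of both libraries were clustered together (scanpy 1.11.5, leidenalg 0.10.2; 2000 variable genes without the genes described, 30 components, 15 neighbours, resolution 1) into 42 clusters. A cluster was named when at least 3 markers, and at least 50% of a list, were detected in 10% of its cells at 2-fold or more; this scoring was chosen once the data had been looked at. Its leading genes could not favour another class. Clusters left unnamed numbered 4. Names may differ from the authors' own.

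UMIs were summed per class, with Poisson intervals, exact binomial intervals for ratios (95%), and shares after thinning to 1000 UMIs. Free RNA came from barcodes of 1 to 100 UMIs. Intervals and floors (3 counts) cover counting error only. The size rule was tested on simulated data. Further pathway genes were named when past the size rule in a class of at least 200 cells per library, at most 6 per class, plus the highest of each list; for each gene described, the 3 most alike by Pearson correlation were named, except that some are not reported here. The genes, lists and rules were chosen with earlier results of these data known. Alternatives were doublets kept, other UMI, mitochondrial and eligibility limits, other clusterings and naming, other scaling, pseudocount and cluster weights, and subtraction of free RNA.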

Additional observations from a re-analysis of the deposited data

How the results depend on the processing

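With 1 library per group, no value here has a replicate check, and a library effect and genotype cannot be told apart. No paired analysis was possible because each group has 1 library. Depth limits Tgfb3 and the monocyte, neutrophil and T cell values of the control library most. The 99 log2 ratios of the 10 genes were recomputed under 13 alternatives where the class kept 50 cells per library: 1165 of 1235 values kept their sign and 70 did not. The cause of each change below was not tested. The count of lower gene and class pairs past the size rule, 0 as reported, was 1 with a pseudocount of 1 CPM, 1 at Leiden resolution 2, 1 with each cell named alone, 1 with each library clustered on its own, 2 with likely doublets kept and 2 under a UMI minimum set per library. The count of higher pairs, also 0, was 3 with each library clustered on its own: Itgb6 in proximal tubule (1.06), Ltbp1 in injured tubule (1.46) and Tgfb1 in fibroblasts (1.03), with Ltbp1 in fibroblasts lower (-2.11). The other lower pairs were Tgfbr3 in intercalated cells or thin limb, and Itgb6 in fibroblasts (-1.11 and -1.66) and pericytes or smooth muscle (-1.02), classes where it was otherwise too low to be eligible. The 60 pathway genes gave 12 higher and 11 lower pairs as reported, 6 and 7 at a mean level of 50 CPM or more, and 5 lower pairs under a UMI minimum set per library, which left 10 classes. Thbs1 in dendritic cells reversed to 0.26 with each cell named alone. Eng, higher in its 4 eligible classes as reported, was lower in 3 of them with each cell named alone. It was lower in 2 with the same cluster weights and in 2 with free RNA subtracted. With equal class shares the Eng ratio of 1.05 ran from 0.992 to 1.61 and that of Tgfbr3, 0.724, from 0.72 to 0.962.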
